A study of Mus musculus with 12 samples.

Results

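The nuclear genes of the mitochondrial respiratory chain were followed in MC38 mouse colon cancer cells that lacked or carried either main isoform of the adhesion protein CEACAM1. Members were chosen by gene symbol alone: complex I (Ndufa, Ndufb, Ndufc, Ndufs and Ndufv genes), complex II (Sdh), complex III (Uqcr and Cyc1), cytochrome c (Cycs), complex IV (Cox5 to Cox8 genes) and complex V (Atp5). The rule found 78 genes on the array, read by 120 of its 45281 probes. Of these, 68 genes were detected on at least 4 of the 12 arrays and were tested, out of 9100 tested among 19057 named genes. Complex I supplied 32 tested genes, complex II 3, complex III 7, cytochrome c 1, complex IV 10 and complex V 15.

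There were 3 groups with 4 arrays each. CEACAM1-L cells carried the long isoform and CEACAM1-S cells the short isoform. Control cells were MC38 cells deficient in CEACAM1 per their labels, which do not say whether they hold an empty vector. MC38 is a metastatic colon cancer line from C57BL/6 mice. Each line had been kept 72 h in medium with 10% serum and selection antibiotics. The labels do not say whether a group's 4 samples were separate cultures or clones, so the p-values cover only how arrays of a line vary, and that variation may be technical. Ceacam1 itself averaged 6.55 ± 0.12 log2 units in CEACAM1-L cells and 8.33 ± 0.39 in CEACAM1-S cells, against 4.92 ± 0.06 in control cells (SD, n = 4 each), with no overlap between any pair of groups. Of 12 epithelial and colon markers, only Cdh1, Krt8, Lgals4 and Cldn7 were detected on at least 4 arrays; Epcam, Krt18, Krt19, Krt20, Vil1, Cdx1, Cdx2 and Muc2 were not. Of those 4, only Krt8, an epithelial keratin gene, passed in any comparison: it averaged 5.87 ± 0.18 in CEACAM1-L, 5.28 ± 0.32 in CEACAM1-S and 6.31 ± 0.21 in control cells (SD, n = 4), and fell by 1.03 in CEACAM1-S (limma adjusted p = 0.00015), also under median scaling. It was 0.59 higher in CEACAM1-L than in CEACAM1-S. Whether cell state moved with the other results was not tested. Per array, 14717 to 16071 probes were detected, and a level under that floor could not be seen. Signal from bulk RNA cannot tell less RNA per cell from fewer cells that carry it.

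The respiratory chain sits in the inner mitochondrial membrane. Complexes I and II pass electrons from NADH and succinate to coenzyme Q, complex III hands them to cytochrome c, and complex IV gives them to oxygen; the proton gradient built on the way drives ATP synthesis by complex V. Most subunits are encoded in the nucleus and meet a small set encoded by mitochondrial DNA, for which the array has no named probe (0 of 13). Their nuclear genes are known to share promoter sites for the factors NRF-1 and GABP (an ETS factor), and coactivators of the PGC-1 family raise them in many tissues.

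Most respiratory chain genes that passed the test were higher in the CEACAM1 lines, by small amounts. In CEACAM1-L cells, 19 of 68 rose and 2 fell against control cells. In CEACAM1-S cells, 13 rose and 1 fell against control cells. Both comparisons share the 4 control arrays. The test was limma's moderated test with Benjamini-Hochberg adjustment over all 9100 genes and a threshold of 0.05. The members were not called more often than genes at large: 30.9% passed in CEACAM1-L against 36.2% of all tested genes, and 20.6% in CEACAM1-S against 23.6%. Most of the members' calls were rises, while calls over all genes were split about evenly. In CEACAM1-L, 27.9% of members rose and 2.94% fell, against 18.2% and 18% of all genes. In CEACAM1-S, 19.1% rose and 1.47% fell, against 12.2% and 11.4% of all genes. Between CEACAM1-L and CEACAM1-S cells, 5 members were higher in CEACAM1-L and 6 were lower, or 7.35% and 8.82% of members against 13.2% and 12.9% of all genes (16.2% of members and 26.2% of all genes in either direction).

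The arrays were also split into 2 sets that cross the groups: the 2 arrays of each group with the highest maximum raw signal, and the other 2. The maxima were 30290 to 40614 in the higher set and 17443 to 27138 in the other. The labels name no such sets and do not say why the maxima differ. Between arrays of different groups, deviations from the group means correlated at 0.041 to 0.26 within a set and at -0.27 to -0.034 across the sets. With the set as a block, 23 members passed in CEACAM1-L against control, 19 in CEACAM1-S against control and 15 between the isoform lines. Each of the 46 calls made without the block passed again. Calls over all 9100 genes also grew with the block, to 3680, 2493 and 2768, from 3290, 2148 and 2382 without it. Within the set of higher maximum signal 22, 15 and 12 members passed, beside 3217, 1936 and 2573 of all genes. Within the other set 9, 7 and 5 members passed, beside 1678, 893 and 677 of all genes. Each of these fits had 2 arrays a group.

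The members' median log2 difference from control was 0.12 in CEACAM1-L (range -0.52 to 0.81) and 0.13 in CEACAM1-S (range -0.46 to 1.47), with medians of -0.01 over all genes in both comparisons. Between CEACAM1-L and CEACAM1-S it was 0.03, against -0.02 over all genes. With arrays scaled to their median in place of quantile normalization, the median of all genes itself moved to -0.11 in CEACAM1-L; the members' median there turned to -0.03, which is 0.08 above all genes, while in CEACAM1-S it was 0.13. Under that scaling 0 members passed in CEACAM1-L, 1 in CEACAM1-S and 1 between the isoform lines, where 7%, 3.03% and 3.22% of all genes passed. At an unadjusted p under 0.05 in limma the 3 counts of members were 1, 1 and 5 there, and the shares of all genes 18%, 10.4% and 11.9%. No called member changed its sign under that scaling. The mean level of the 68 members (log2, quantile normalized) lay between 10.50 and 10.56 on CEACAM1-L arrays and 10.51 and 10.59 on CEACAM1-S arrays. On control arrays it lay between 10.37 and 10.43. On these values no control array reached the lowest array of either CEACAM1 line. No test was made of the members' mean. The mean over all genes was 7.60 to 7.64 on the 12 arrays, but quantile normalization itself makes it nearly equal, so it is no independent reference.

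**Figure D1:**
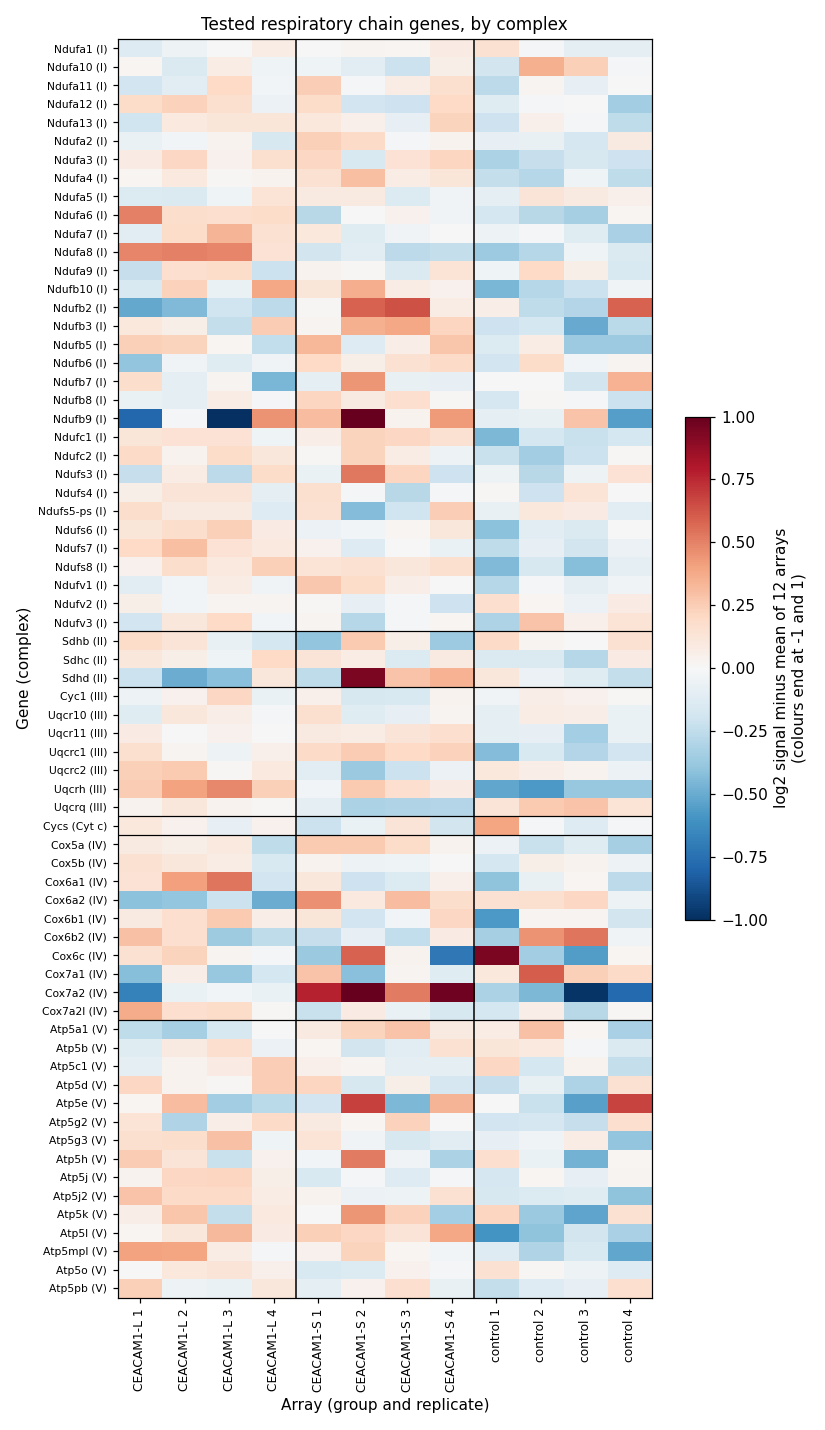
Log2 signal of the 68 tested respiratory chain genes on each array, as the difference from the gene's mean over 12 arrays; rows run by complex and columns by group (CEACAM1-L, CEACAM1-S, control). Differences from control were positive for 49 of the 68 genes in CEACAM1-L and for 50 in CEACAM1-S. Cox7a2 is red on all 4 CEACAM1-S arrays. After median scaling the members' median difference in CEACAM1-L turned to -0.03 (all genes -0.11).

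Promoters of 65 of the 78 members were found in RefSeq (build GRCm38.p6), as windows from 250 bases before to 50 after the start site. The NRF-1 motif (GCGCA, any base, then GCGC), read on both strands, was in 24.3% of 70 member promoters and in 4.6% of all 32851 promoters. The ETS motif CCGGAAG was in 22.9% and 8.86%, and the YY1 motif AANATGGCG in 14.3% and 2.38%. A match of letters is not a shown binding site. Of the 18 genes with a promoter that rose in CEACAM1-L, 5 held the NRF-1 motif and 5 the ETS motif, against 9 and 10 of the 38 that did not pass; the YY1 motif was in 5 of the 18 and 4 of the 38. Of the 12 that rose in CEACAM1-S, 1 held the NRF-1 motif and 4 the ETS motif, against 13 and 11 of 45 that did not pass; the YY1 motif was in 1 of the 12 and 8 of the 45. The upstream 250 bases of 4 genes are shown, because these genes carry the differences of complexes IV, III, V and I described next. All are read 5′ to 3′ on the gene's own strand, the minus strand of the build, with motif matches in capitals. Uqcrh, at chr4:116075071-116075320, has an ETS match on the other strand that ends 3 bases before the start site. Atp5l, at chr9:44920743-44920992, has an ETS match on the other strand that ends 205 bases before it. Another Atp5l match on that strand, at bases 275 to 281 of the window, lies after the start site and outside the bases shown. Ndufa8, at chr2:36049339-36049588, has an NRF-1 match on the other strand that ends 20 bases before it. Cox7a2, at chr9:79759854-79760103, holds none of the 3 motifs in these bases.
Uqcrh: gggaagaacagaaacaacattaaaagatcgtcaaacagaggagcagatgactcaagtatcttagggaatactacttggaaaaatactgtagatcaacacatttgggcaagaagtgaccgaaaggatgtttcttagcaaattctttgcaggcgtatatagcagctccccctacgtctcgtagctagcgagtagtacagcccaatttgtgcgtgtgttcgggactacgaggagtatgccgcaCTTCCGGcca
Atp5l: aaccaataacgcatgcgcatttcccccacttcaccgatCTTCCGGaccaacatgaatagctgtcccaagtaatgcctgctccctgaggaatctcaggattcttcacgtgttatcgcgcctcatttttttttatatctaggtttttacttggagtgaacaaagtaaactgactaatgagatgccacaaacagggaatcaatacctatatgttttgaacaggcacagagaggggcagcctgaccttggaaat
Ndufa8: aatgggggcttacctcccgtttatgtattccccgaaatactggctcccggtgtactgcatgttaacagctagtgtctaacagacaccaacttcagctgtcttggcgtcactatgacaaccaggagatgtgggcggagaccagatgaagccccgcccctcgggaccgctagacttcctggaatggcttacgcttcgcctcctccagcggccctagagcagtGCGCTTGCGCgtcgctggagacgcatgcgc
Cox7a2: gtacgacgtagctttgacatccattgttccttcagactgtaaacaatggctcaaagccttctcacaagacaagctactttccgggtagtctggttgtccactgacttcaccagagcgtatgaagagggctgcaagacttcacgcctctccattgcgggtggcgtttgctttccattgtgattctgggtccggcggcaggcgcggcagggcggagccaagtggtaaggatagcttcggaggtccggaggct

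Complex I, the NADH dehydrogenase, holds 32 of the 68 tested genes by gene symbol. Ndufa4, now counted with complex IV, and Ndufs5-ps, annotated as a pseudogene, are included in these counts. In CEACAM1-L cells 11 of them rose and 0 fell, or 34.4% risen against 18.2% of all genes; in CEACAM1-S cells 6 rose and 0 fell, or 18.8% against 12.2%. At an unadjusted p under 0.05 in limma, 13 were higher and 0 lower in CEACAM1-L, and 10 were higher and 0 lower in CEACAM1-S. Of all genes, 21.8% were higher and 22.5% lower in CEACAM1-L at that p, and 17.2% and 16.8% in CEACAM1-S. Ndufa8, an accessory subunit of the intermembrane space side, set the isoform lines apart. Its signal was 11.75, 11.77, 11.75 and 11.40 on CEACAM1-L arrays, 11.08, 11.15, 10.999 and 11.03 on CEACAM1-S arrays, and 10.90, 10.98, 11.21 and 11.11 on control arrays. All CEACAM1-L arrays lay above the other 8, and CEACAM1-S overlapped control. The difference was 0.62 ± 0.10 (SE) from control (1.53-fold, limma adjusted p = 1.72e-05) and 0.60 ± 0.10 from CEACAM1-S (adjusted p = 4.47e-05), whereas CEACAM1-S differed from control by 0.01 ± 0.10 (adjusted p = 0.954). A second Ndufa8 probe gave 0.72 and 0.58 for the same CEACAM1-L differences.

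Ndufs8, a core subunit that holds iron-sulfur clusters, was higher in both lines by nearly the same amount. It read 11.32, 11.46, 11.38 and 11.52 on CEACAM1-L arrays, 11.42, 11.44, 11.39 and 11.44 on CEACAM1-S arrays and 10.84, 11.12, 10.86 and 11.18 on control arrays. Its differences from control were 0.42 in CEACAM1-L (limma adjusted p = 0.00072) and 0.42 in CEACAM1-S (adjusted p = 0.00108), with every array of either line above all control arrays. Ndufs7, its neighbour in the electron path to coenzyme Q, rose by 0.33 in CEACAM1-L (adjusted p = 0.00383) and gave 0.11 in CEACAM1-S (adjusted p = 0.419). The other core genes tested, Ndufs3, Ndufv1 and Ndufv2, did not pass in any comparison.

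Among the accessory subunits, which surround the core and help its assembly and stability, Ndufc1 rose by 0.35 in CEACAM1-L and 0.42 in CEACAM1-S. Ndufc2, its partner in the membrane arm, rose by 0.33 in CEACAM1-L and 0.26 in CEACAM1-S. Ndufb3 rose by 0.33 in CEACAM1-L and 0.54 in CEACAM1-S, and Ndufa3 by 0.35 and 0.33. Ndufa4, which carries a complex I name but is now counted with complex IV, rose by 0.25 in CEACAM1-L and 0.37 in CEACAM1-S. Ndufa6, which lies near the coenzyme Q site with the acyl carrier protein, also separated the isoform lines. It averaged 12.10 ± 0.17 in CEACAM1-L, 11.78 ± 0.14 in CEACAM1-S and 11.65 ± 0.16 in control cells (SD, n = 4), and rose by 0.45 from control and 0.32 from CEACAM1-S. Ndufa7 (0.27) and Ndufs6 (0.32) also rose in CEACAM1-L. With the brightest probe of each gene, no complex I gene was called lower against control, though a dimmer Ndufb8 probe was, as given below.

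3 membrane-arm genes were lower in CEACAM1-L when set against CEACAM1-S. Ndufb9 showed -0.80 ± 0.26 (limma adjusted p = 0.0253), with 5.24, 6.01, 4.99 and 6.47 on CEACAM1-L arrays and 6.33, 7.08, 6.06 and 6.45 on CEACAM1-S arrays; the groups overlapped. Ndufb2 showed -0.68 ± 0.20 and Ndufb6 -0.30 ± 0.10, both without overlap. Without background correction the differences of Ndufb9 and Ndufb2 were -0.35 and -0.24. None of the 3 passed against control in either line. The remaining 18 tested complex I genes, Ndufa1, Ndufa9, Ndufa10 and Ndufv1 among them, passed in no comparison.

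Complex II, succinate dehydrogenase, links the chain to the tricarboxylic acid cycle, and none of its 3 tested genes passed against control. Sdhb, the iron-sulfur subunit, averaged 9.29 ± 0.17 in CEACAM1-L, 9.17 ± 0.32 in CEACAM1-S and 9.37 ± 0.09 in control cells (SD, n = 4). Sdhc, a membrane anchor, averaged 10.87 ± 0.10 in CEACAM1-L, 10.83 ± 0.12 in CEACAM1-S and 10.67 ± 0.15 in control cells. Sdhd, the other anchor, showed -0.58 ± 0.21 for CEACAM1-L minus CEACAM1-S (limma adjusted p = 0.039). Its signal was 4.75, 4.47, 4.55 and 5.08 on CEACAM1-L arrays, 4.71, 5.91, 5.25 and 5.31 on CEACAM1-S arrays and 5.08, 4.91, 4.84 and 4.73 on control arrays, so the groups overlapped. It was detected on only 1 CEACAM1-L array, and the difference was -0.20 without background correction. Sdha, the flavoprotein, was not tested. Cycs, the somatic cytochrome c, averaged 10.84 ± 0.08 in CEACAM1-L, 10.73 ± 0.16 in CEACAM1-S and 10.87 ± 0.23 in control cells. It passed in no comparison.

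Complex III carried the gene with the lowest adjusted p among the members in CEACAM1-L. Uqcrh, the hinge protein that helps cytochrome c1 meet cytochrome c, read 11.93, 12.08, 12.16 and 11.92 on CEACAM1-L arrays, 11.65, 11.94, 11.85 and 11.76 on CEACAM1-S arrays and 11.16, 11.10, 11.30 and 11.30 on control arrays. All 8 arrays of the CEACAM1 lines lay above the 4 control arrays. Uqcrh rose by 0.81 ± 0.09 in CEACAM1-L (1.75-fold, limma adjusted p = 1.37e-07) and by 0.58 ± 0.09 in CEACAM1-S (adjusted p = 2.66e-05); the lines differed by 0.22 (adjusted p = 0.068).

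Uqcrc1, a core protein of the matrix side, rose by 0.31 in CEACAM1-L and 0.49 in CEACAM1-S, without overlap with control in either. Its partner Uqcrc2 gave 0.12 and -0.22, neither past the test, but was 0.34 higher in CEACAM1-L than in CEACAM1-S (adjusted p = 0.00638 in limma). Uqcr11, a small membrane subunit, rose by 0.26 in CEACAM1-S. Uqcrq, another small subunit, went the other way. It averaged 8.57 ± 0.04 in CEACAM1-L, 8.27 ± 0.11 in CEACAM1-S and 8.72 ± 0.08 in control cells (SD, n = 4), and fell by 0.46 in CEACAM1-S (limma adjusted p = 0.0024). It was 0.30 higher in CEACAM1-L than in CEACAM1-S. Cyc1, the cytochrome c1 heme protein, and Uqcr10 passed in no comparison.

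**Figure D2:**
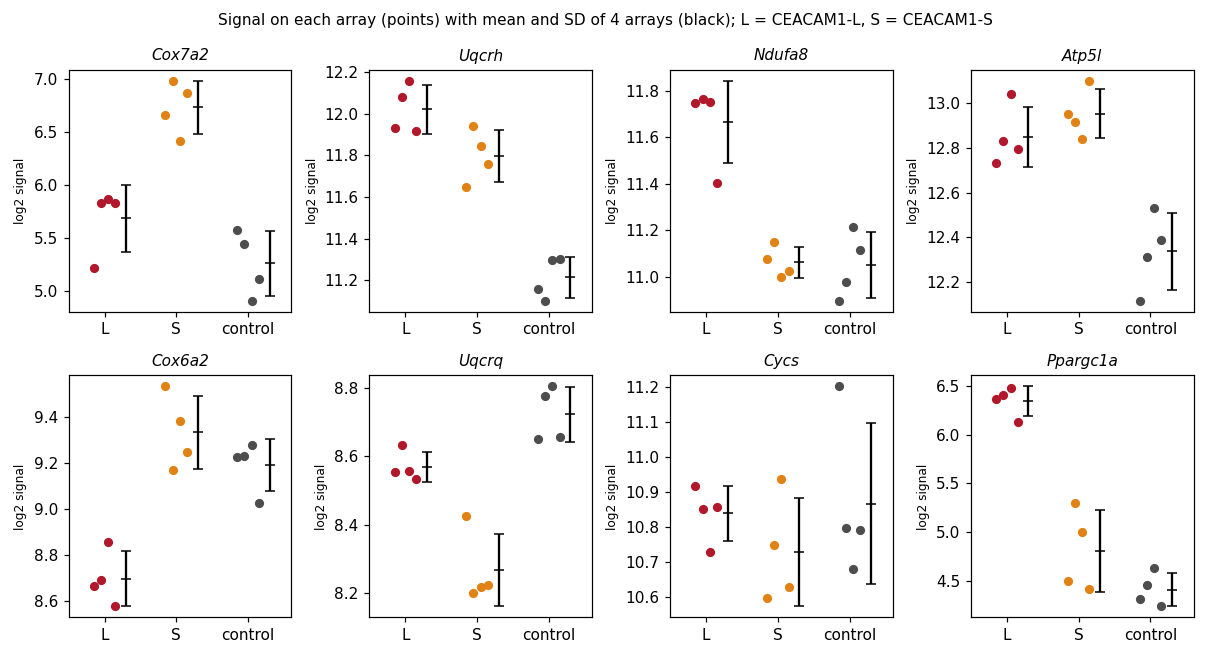
Log2 signal on each array (points), with mean and SD of 4 arrays (black), for 7 respiratory chain genes and the coactivator gene Ppargc1a; L is CEACAM1-L and S is CEACAM1-S. Uqcrh and Atp5l are higher in both lines than in control, Ndufa8 and Ppargc1a in CEACAM1-L, Cox7a2 in CEACAM1-S, while Cox6a2 is lower in CEACAM1-L and Uqcrq in CEACAM1-S; Cycs overlaps in all groups.

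Complex IV, cytochrome c oxidase, held the largest single difference among the members. Cox7a2, the widely expressed liver-type form of subunit 7a, read 5.21, 5.83, 5.86 and 5.83 on CEACAM1-L arrays, 6.66, 6.98, 6.41 and 6.87 on CEACAM1-S arrays and 5.57, 5.44, 4.91 and 5.11 on control arrays. The CEACAM1-S arrays lay above all 8 others. Cox7a2 rose by 1.47 ± 0.19 in CEACAM1-S (2.77-fold, limma adjusted p = 3.33e-06) and gave 0.42 ± 0.19 in CEACAM1-L (adjusted p = 0.0924). For CEACAM1-L minus CEACAM1-S it showed -1.05 ± 0.19 (adjusted p = 0.000248). Its calls passed in each alternative fit that was run, median scaling included. The size depended on the background correction: the rise in CEACAM1-S was 0.66 without it and 0.54 in the authors' deposited log2 values.

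Of 6 tissue isoforms of complex IV, 3 were tested. In CEACAM1-L against control 2 of these fell, or 66.7%, against 18% of all genes. So few genes cannot show a trait of the tissue isoforms. Cox6a2, the heart and muscle form of subunit 6a, read 8.66, 8.69, 8.86 and 8.58 on CEACAM1-L arrays, 9.53, 9.17, 9.38 and 9.25 on CEACAM1-S arrays and 9.23, 9.23, 9.28 and 9.03 on control arrays. All CEACAM1-L arrays lay below the other 8: it fell by 0.49 against control (limma adjusted p = 0.000816) and by 0.64 against CEACAM1-S (adjusted p = 0.000101). Cox6a1, the ubiquitous form of the same subunit, rose by 0.41 in CEACAM1-L. Cox7a1, the heart and muscle form of subunit 7a, averaged 4.98 ± 0.22 in CEACAM1-L, 5.15 ± 0.29 in CEACAM1-S and 5.50 ± 0.22 in control cells (SD, n = 4), and fell by 0.52 in CEACAM1-L (adjusted p = 0.0306). Cox7a1 was detected on only 3 CEACAM1-L arrays, and without background correction that difference was -0.17. Cox6b2, the testis form of subunit 6b, was detected on 2 arrays of each group and did not pass, whereas Cox6b1 rose by 0.32 in CEACAM1-L. Cox7b2, Cox8b and Cox8c were not tested. Of 10 striated muscle markers only Des was detected on at least 4 arrays, and of 6 germ cell markers only Ddx4; neither passed in any comparison.

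Cox5a, a structural subunit of the matrix side, rose by 0.37 in CEACAM1-S (limma adjusted p = 0.00471) and gave 0.18 in CEACAM1-L. Cox7a2l, which tethers complexes III and IV in supercomplexes and is shortened in C57BL/6 mice, was 0.28 higher in CEACAM1-L than in control and 0.28 higher than in CEACAM1-S, with overlapping arrays in both comparisons. Cox5b and Cox6c passed in no comparison. Cox4i1 and the complex I carrier protein gene Ndufab1, which the symbol rule leaves out, gave 0.02 and 0.00 in CEACAM1-L and -0.07 and -0.02 in CEACAM1-S, and did not pass.

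**Figure D3:**
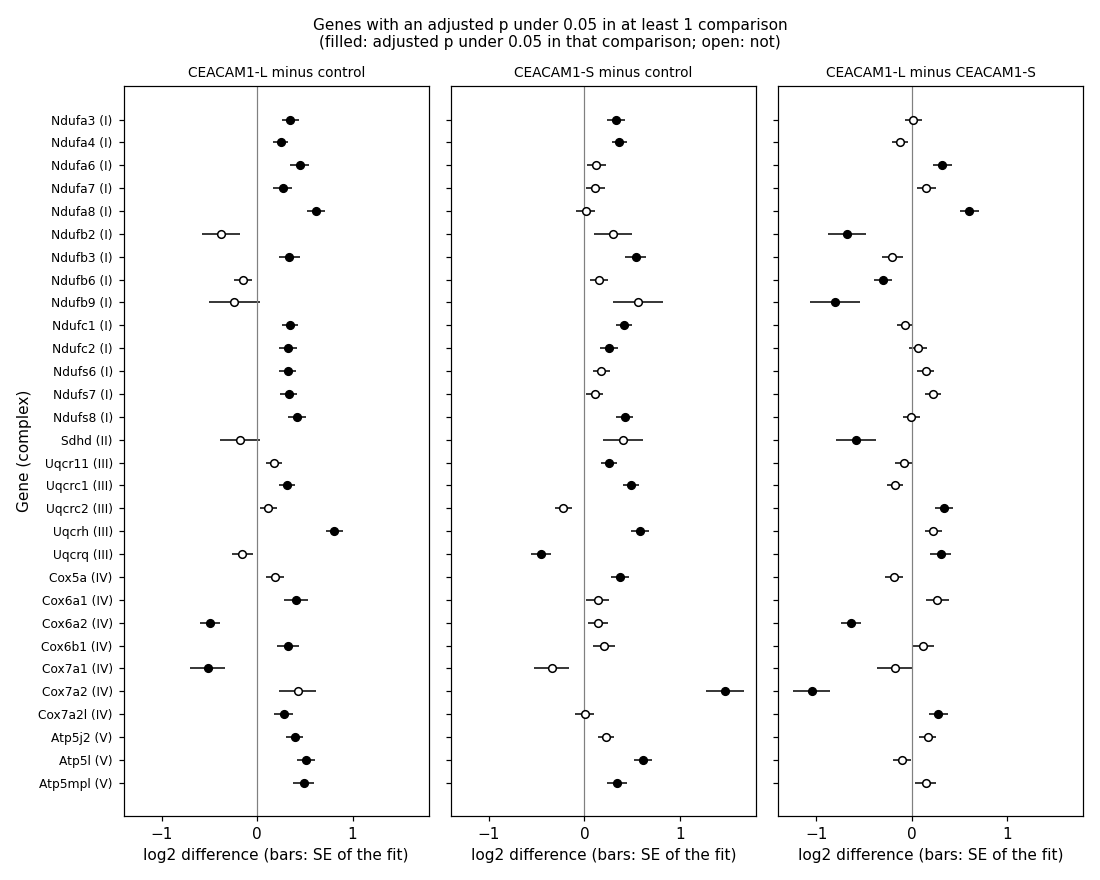
Log2 differences of the 30 members with an adjusted p under 0.05 in at least 1 comparison, with the SE of the fit; filled points passed in that comparison. Most filled points lie right of 0 in the panels against control, and both signs occur between CEACAM1-L and CEACAM1-S; after median scaling each of these calls kept its sign but only those of Cox7a2 passed.

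In complex V, the ATP synthase, the genes that passed the test all belong to the membrane domain. Atp5l, subunit g of the membrane domain where synthase dimers form, read 12.73, 12.83, 13.04 and 12.80 on CEACAM1-L arrays, 12.95, 12.92, 12.84 and 13.10 on CEACAM1-S arrays and 12.12, 12.31, 12.53 and 12.39 on control arrays. Neither line overlapped control. Atp5l rose by 0.51 ± 0.10 in CEACAM1-L (limma adjusted p = 0.000146) and by 0.61 ± 0.10 in CEACAM1-S (adjusted p = 2.91e-05), and its second kept probe gave 0.65 and 0.69. Atp5mpl, a small membrane subunit, rose by 0.49 in CEACAM1-L and 0.34 in CEACAM1-S. Atp5j2, subunit f of the same domain, rose by 0.39 in CEACAM1-L (adjusted p = 0.000904) and gave 0.23 in CEACAM1-S (adjusted p = 0.0627). In all, 3 of 8 tested genes of the peripheral stalk and membrane domain rose in CEACAM1-L and 2 of 8 in CEACAM1-S. At the same adjusted p threshold, 18.2% of all genes rose in CEACAM1-L and 12.2% in CEACAM1-S, both against control. Of the 5 genes of the catalytic F1 part (Atp5a1, Atp5b, Atp5c1, Atp5d and Atp5e) and the 2 of the rotating ring (Atp5g2 and Atp5g3), 0 passed with the probe used, also between the isoform lines; the nearest was Atp5g3 in CEACAM1-L (0.26, limma adjusted p = 0.0502). At an unadjusted p under 0.05 in limma, 2 of these 7 were higher in CEACAM1-L against control and 0 differed in CEACAM1-S against control. Between the isoform lines 1 was lower in CEACAM1-L. Of all genes, 21.8% were higher in CEACAM1-L against control at that p, and 17.2% were higher and 16.8% lower in CEACAM1-S. Against CEACAM1-S, 18.6% were lower in CEACAM1-L. Counts of so few genes cannot show whether the parts of complex V differ. Atp5b, the catalytic beta subunit, averaged 14.31 ± 0.13 in CEACAM1-L, 14.26 ± 0.15 in CEACAM1-S and 14.30 ± 0.12 in control cells (SD, n = 4).

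In 21 members more than 1 probe was kept, and the brightest stood for the gene. For some the probes disagreed. The dimmer Atp5a1 probe gave 0.62 in CEACAM1-L and 0.81 in CEACAM1-S, both past the test over all kept probes, where the probe used gave -0.21 and 0.15. The dimmer Ndufb8 probe gave -0.76 and -0.80, both past the test, where the probe used gave 0.07 and 0.22. Dimmer probes also passed for Atp5o in CEACAM1-L (0.46), Atp5j in CEACAM1-S (0.60), Sdhb in CEACAM1-S (0.55) and Cox6b1 in CEACAM1-S (0.35). These genes are uncertain. For CEACAM1-L minus CEACAM1-S the dimmer Atp5j probe gave -0.32 and passed, where the probe used gave 0.21. The dimmer Cox6a1 probe also passed there (0.28), where the probe used (0.27) did not. Probe pairs of Ndufa8, Atp5l, Ndufc1 and Cox6a1 passed in the same direction in the comparisons where the gene was called. Other called genes had a dimmer probe of the same sign that did not pass: Ndufs6 in CEACAM1-L (0.38), Ndufa3 in CEACAM1-S (0.25) and Ndufb6 between the isoform lines (-0.47). The 10 members not detected on enough arrays were Ndufb4, Ndufb11, Ndufs1, Sdha, Uqcrfs1, Cox7b, Cox7b2, Cox8b, Cox8c and Atp5md. Ndufs5-ps is annotated as a pseudogene, and which copies its probe reads was not tested.

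Several calls were lost when 1 array was left out, most of them in more than 1 such fit. In fits that left out 1 of the 12 arrays at a time, 14 of the 21 calls of CEACAM1-L against control passed every time. Cox6a1 was lost without CEACAM1-L replicate 2 or 3 (limma adjusted p up to 0.0656), and Ndufb3 without CEACAM1-L replicate 4 or control replicate 3 (up to 0.0839). Ndufa4 was lost without CEACAM1-L replicate 2 or control replicate 2 or 4 (up to 0.0718), and Cox7a1 without CEACAM1-L replicate 1 or 3 or control replicate 2 (up to 0.12). Cox6b1, Cox7a2l and Ndufa7 were each lost in 4 or 5 of the fits (up to 0.146). Of the 14 calls of CEACAM1-S against control, 11 passed every time; Atp5mpl (without CEACAM1-S replicate 2 or control replicate 2 or 4), Uqcr11 (without CEACAM1-S replicate 3 or 4 or control replicate 3) and Ndufc2 (in 6 fits) did not (up to 0.151).

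Between CEACAM1-L and CEACAM1-S, 4 of 11 calls passed every time, those of Cox7a2, Cox6a2, Ndufa8 and Uqcrc2. The number called was 5 without CEACAM1-L replicate 1 and 7 without CEACAM1-L replicate 3, CEACAM1-S replicate 3 or CEACAM1-S replicate 4. Shares of all genes in those fits are not given here. Ndufb2 was lost without CEACAM1-S replicate 3 (limma adjusted p = 0.0593) and Ndufa6 without CEACAM1-L replicate 1 or CEACAM1-S replicate 1 (up to 0.097). Ndufb6 and Ndufb9 were lost in 3 fits each, and Sdhd, Uqcrq and Cox7a2l in 6 each (up to 0.173). Counts of members whose arrays did not overlap were 20 in CEACAM1-L against control, 16 in CEACAM1-S against control and 12 between the isoform lines, or 29.4%, 23.5% and 17.6% of members against 32.6%, 23.5% and 25.8% of all genes.

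Some members lie where many genes were higher together. On chromosome 9, 47.2% of the 508 tested genes were called higher in CEACAM1-S and 2.36% lower, with a median log2 difference of 0.37. All 5 members there had positive differences in CEACAM1-S (Cox7a2, Atp5l, Uqcrc1, Cox5a and Sdhd), and 4 of them rose, with a median of 0.49. On chromosome 5, 42.2% of 625 tested genes were called higher in CEACAM1-L, with a median of 0.26. Of the 3 members there, Atp5j2 and Cox6a1 rose and Atp5k did not pass, with a median of 0.39. The part of chromosome-wide differences in these calls was not tested. Outside chromosomes 5 and 9, in a count chosen after seeing the data, 15 of 60 members rose and 2 fell in CEACAM1-L, with a median of 0.085; of all 7955 tested genes outside them, 15.8% rose and 19.1% fell, with a median of -0.030. In CEACAM1-S 9 members rose and 1 fell, with a median of 0.11, against 9.42% and 12.1% of those genes and a median of -0.028. The mean level of these 60 genes was 10.60 to 10.66 on CEACAM1-L arrays, 10.59 to 10.65 on CEACAM1-S arrays and 10.48 to 10.55 on control arrays.

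**Figure D4:**
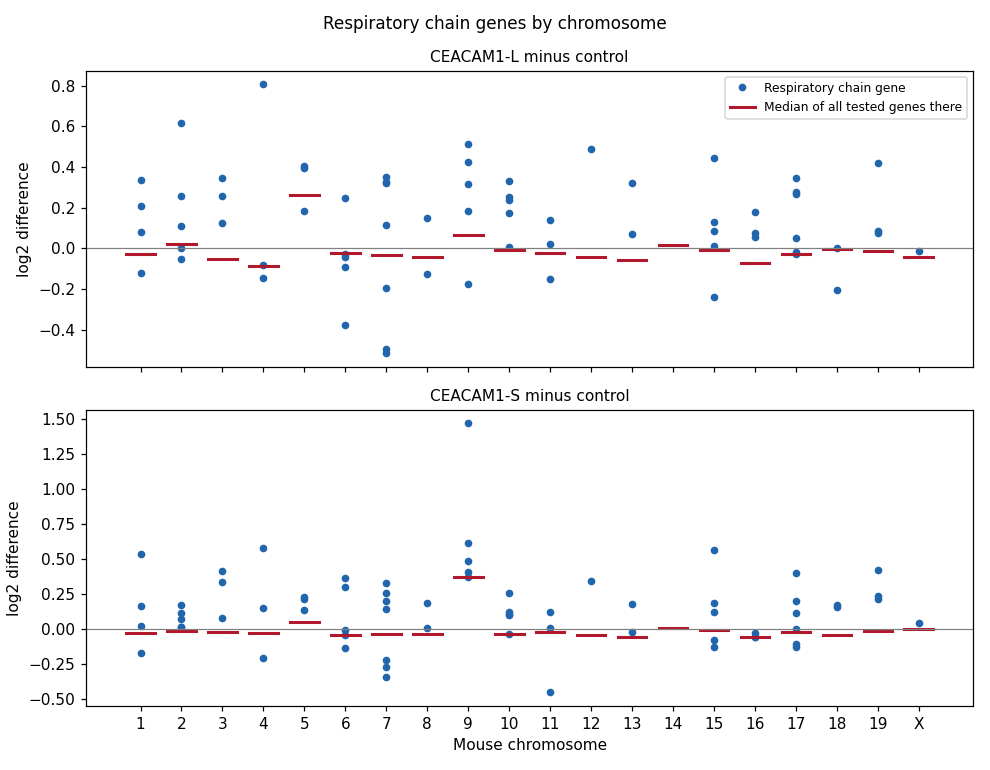
Log2 difference of each tested respiratory chain gene (points) by mouse chromosome, with the median of all tested genes on that chromosome (red bars), for CEACAM1-L and CEACAM1-S against control. In CEACAM1-S the bar of chromosome 9 stands at 0.37 and its 5 members lie around or above it; in CEACAM1-L the bar of chromosome 5 stands at 0.26.

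Calls in the other mitochondrial gene lists went both ways. Under median scaling no called gene of these lists changed its sign, but of 59 calls in CEACAM1-L against control 10 still passed, of 41 in CEACAM1-S against control 1, and of 39 between the isoform lines 2. In the authors' deposited log2 values 57, 40 and 36 of these calls passed with no change of sign, though 12, 11 and 8 of the differences were over 1.5 times smaller there. Of 42 tested assembly factors, 7 rose and 5 fell in CEACAM1-L, and 4 rose and 4 fell in CEACAM1-S. These are 16.7% and 11.9% in CEACAM1-L against 18.2% and 18% of all genes, and 9.52% each in CEACAM1-S against 12.2% and 11.4%. Ndufaf4, a complex I assembly factor, averaged 8.90 ± 0.04 in CEACAM1-L, 9.10 ± 0.14 in CEACAM1-S and 9.91 ± 0.24 in control cells (SD, n = 4), and fell by 1.01 in CEACAM1-L (limma adjusted p = 1.6e-07) and by 0.80 in CEACAM1-S. Uqcc1, which helps build cytochrome b into complex III, fell by 0.55 and 0.85, and Coa4, a complex IV factor, fell by 0.80 in CEACAM1-L (by 0.40 in the authors' deposited values). Foxred1, another complex I factor, rose by 0.55 in CEACAM1-L and 0.74 in CEACAM1-S; it lies on chromosome 9.

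Of 72 mitochondrial ribosomal protein genes, which serve translation inside the organelle, 6 rose and 16 fell in CEACAM1-L, while 8 rose and 5 fell in CEACAM1-S. The shares that rose and fell were 8.33% and 22.2% in CEACAM1-L, against 18.2% and 18% of all genes. They were 11.1% and 6.94% in CEACAM1-S, against 12.2% and 11.4% of all genes. Mrpl21 fell by 0.96 and Mrpl50 by 0.86 in CEACAM1-L, and by 0.52 each in CEACAM1-S, whereas Mrpl33 rose by 0.52 in CEACAM1-L and 0.66 in CEACAM1-S. Among 17 import genes 4 rose and 3 fell in CEACAM1-L (23.5% and 17.6%, against 18.2% and 18% of all genes). In CEACAM1-S 3 of them rose and 2 fell (17.6% and 11.8%, against 12.2% and 11.4%). Tomm7 rose by 1.23 in CEACAM1-L and 0.83 in CEACAM1-S, and Timm9 fell by 0.92 and 0.81. Mrpl33 and Tomm7 lie on chromosome 5. The 8 tested genes of ATP export and inner membrane shape, Slc25a5 and Vdac1 among them, passed in no comparison.

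Among 10 tested regulators of mitochondrial biogenesis, 2 rose and 4 fell in CEACAM1-L, and 6 fell in CEACAM1-S, or 40% fallen in CEACAM1-L against 18% of all genes and 60.0% in CEACAM1-S against 11.4%. Ppargc1a, the gene of the coactivator PGC-1 alpha, read 6.36, 6.40, 6.48 and 6.13 on CEACAM1-L arrays, 4.50, 5.30, 4.998 and 4.42 on CEACAM1-S arrays and 4.32, 4.46, 4.63 and 4.24 on control arrays. All CEACAM1-L arrays lay above the other 8. It was detected on 4 CEACAM1-L arrays, on 2 CEACAM1-S arrays and on 0 control arrays. Without its CEACAM1-L arrays it would not have met the filter of 4 arrays. The limma test against control used the values as they stand, with a difference of 1.93 (adjusted p = 2.2e-08). With no control array detected, the size of the rise in CEACAM1-L is a bound, at least 2.91-fold, which was not itself tested. That bound sets the CEACAM1-L mean against the control mean, where each control array counts with its own value or with the lowest detected signal, whichever is higher. The size depended on the background correction: in the authors' deposited log2 values the difference was 0.62. Against CEACAM1-S, where 2 arrays lay below their lowest detected signal, it was 1.38 higher on the log2 scale with those 2 raised to that signal, and 1.54 with the values as they stand (limma adjusted p = 1.7e-06). Ppargc1a lies on chromosome 5, and the part of that chromosome's higher signal in this difference was not tested.

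Esrra, the gene of the nuclear receptor ERR alpha that works with PGC-1 coactivators, averaged 8.55 ± 0.06 in CEACAM1-L, 7.86 ± 0.10 in CEACAM1-S and 8.06 ± 0.12 in control cells (SD, n = 4). It rose by 0.49 in CEACAM1-L against control and by 0.69 against CEACAM1-S. Ppargc1b, a second PGC-1 gene, fell by 0.81 in CEACAM1-S (limma adjusted p = 0.0042), and by 0.27 in the authors' deposited values. Gabpa and Gabpb2, which encode subunits of the ETS factor GABP, fell in both lines. Gabpa fell by 0.74 in CEACAM1-L and 0.78 in CEACAM1-S, and Gabpb2 by 0.89 and 0.63. Under median scaling the call of Gabpb2 in CEACAM1-L still passed, while those of Gabpa in both lines and of Gabpb2 in CEACAM1-S kept their sign but did not. In the authors' deposited values these calls passed with smaller sizes, at -0.29 and -0.30 for Gabpa and -0.28 and -0.20 for Gabpb2. Creb1 fell by 0.83 and 0.63 (by 0.25 and 0.19 in the authors' deposited values) and the PGC-related coactivator gene Pprc1 by 0.76 and 0.38. Nrf1, the gene of NRF-1, gave -0.22 and -0.04, neither past the test.

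**Figure D5:**
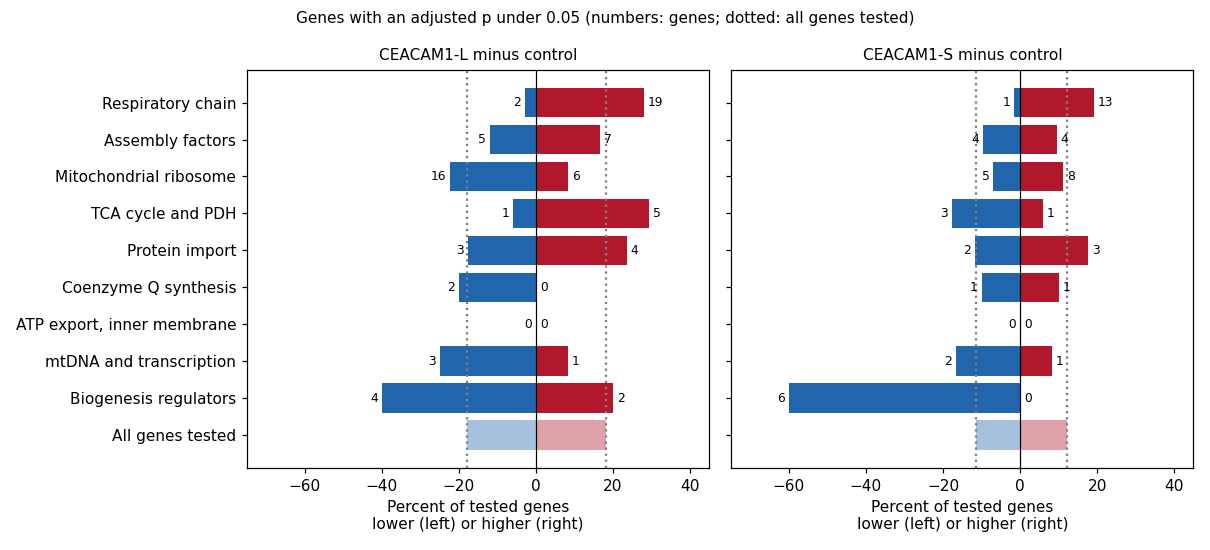
Share of tested genes called lower (left, blue) or higher (right, red) in each mitochondrial gene list, with the number of genes beside each bar; dotted lines mark all tested genes. Respiratory chain genes show 19 higher and 2 lower in CEACAM1-L and 13 higher and 1 lower in CEACAM1-S; after median scaling 0 and 1 of these members passed.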

How the data were processed

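RNA from 12 samples of MC38 cells was hybridised to 1-colour Illumina mouse bead arrays, 4 per group, with groups taken from the sample titles. The deposited table holds a signal intensity and a detection p-value per probe and array, per the file headers; background had not been subtracted. The authors also deposited processed log2 values. The submitters' processing notes name lumi 2.6.0, with no role given.

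Intensities were background corrected with normexp (offset 16), quantile normalized and put on a log2 scale with neqc in limma 3.58.1 (R 4.3.3). A probe stayed in if 4 or more arrays gave it a detection p-value below 0.05 (16330 of 45281), and the brightest kept probe stood for each gene. Signals are compared between groups for 1 probe, never between probes. Platform annotation named 34885 probes with 1 symbol, 18 with several and 10378 with none here; all 78 member gene IDs matched RefSeq. The model held 1 mean for each group over the 12 arrays, and differences were tested two-sided with eBayes (trend in the variance; degrees of freedom 9 residual, 15.5 prior), adjusted over 9100 genes by Benjamini-Hochberg. Errors of means are SDs and those of differences SEs of the fit. The number of arrays limits the precision. The scripts were tested on simulated data.

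The members, the other gene lists and the tests were chosen with earlier results of these data known. The rule for named genes took, per complex, up to 3 rises and 3 falls per comparison past the threshold whose arrays did not overlap, all Sdh and cytochrome c genes, tissue isoforms of complex IV and genes with disagreeing probes. From every other list it took up to 3 genes per comparison; any member could be named. Alternatives changed the background correction, scaling, filter, probe rule, variance trend, array weights and blocks, left out arrays, and used the authors' log2 values.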

Additional observations from a re-analysis of the deposited data

Results flagged for a closer look

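Single arrays stood apart from the other 3 of their group in 12 of 204 member and group combinations, by Dixon's gap test (the gap to the nearest array over the group's range, above the critical value for 4 arrays). Chance gives about 1 in 20, close to the number seen. In CEACAM1-L cells, Ndufa8 read 11.4 on replicate 4, Ndufc1 11.8 on replicate 4 and Cox5a 11.8 on replicate 4, each below the other arrays. Ndufa6 read 12.3 on CEACAM1-L replicate 1, above the others, while Ndufa13 read 12.5 and Cox7a2 5.21 there, below the others. In CEACAM1-S cells, Ndufb7 read 8.10 on replicate 2, above the others, Ndufv3 read 11.2 on replicate 2, below them, and Uqcrq read 8.42 on replicate 1, above them. In control cells, Atp5g2 read 11.2 on replicate 4, above the others, Atp5j2 read 12.6 on replicate 4 and Uqcr11 read 10.9 on replicate 3, both below them.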

How the results depend on the processing

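The scaling of the arrays decided most calls, of members and of all genes alike. With median scaling, 0 members passed in CEACAM1-L against control (21 as reported), 1 in CEACAM1-S against control (14 as reported) and 1 between CEACAM1-L and CEACAM1-S (11 as reported). Calls over all 9100 genes fell in the same comparisons to 637, 276 and 293, from 3290, 2148 and 2382 as reported. The members' median turned to -0.035 in CEACAM1-L against control and to -0.11 between the isoform lines, where all genes lay at -0.11 in both. When probes of a gene were averaged, the median between the isoform lines turned to -0.0097. With no filter on detection, the CEACAM1-L median against control was 0.076. Between the isoform lines 4 members then passed, beside 1921 of 19057 genes. With no variance trend 7 members passed between these lines, beside 2183 of 9100 genes. In the 6 arrays with the lower maximum raw signal alone, 9, 7 and 5 members passed in the 3 comparisons, beside 1678, 893 and 677 of all genes. Outside chromosomes 5 and 9 the CEACAM1-L median against control was 0.085. The causes were not tested. Fits without 1 array called 16 to 22 members in CEACAM1-L against control (medians 0.10 to 0.13), 12 to 15 in CEACAM1-S against control (medians 0.12 to 0.16) and 5 to 14 between the isoform lines (medians 0.01 to 0.04). Shares of all genes in those fits are not given here, so these counts show nothing particular to the members. Of the 46 member differences called, 46 passed without background correction, 43 in the authors' log2 values, 33 with no variance trend and 2 with median scaling, and none changed sign in any alternative fit. Replicate numbers did not pair the arrays (correlation of deviations from group means between -0.20 and 0.19). With the replicate block, 22, 13 and 8 members passed in the 3 comparisons, beside 3154, 1972 and 2250 of all genes. A difference in a probe near background was limited by the signal over it.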

Other observations

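In the tricarboxylic acid cycle and pyruvate dehydrogenase list, which feeds NADH and succinate to the chain, 5 of 17 tested genes rose and 1 fell in CEACAM1-L against control, and 1 rose and 3 fell in CEACAM1-S. These are 29.4% and 5.88% in CEACAM1-L against 18.2% and 18% of all genes, and 5.88% and 17.6% in CEACAM1-S against 12.2% and 11.4%. Idh3a, a subunit of the NAD-linked isocitrate dehydrogenase, averaged 7.58 ± 0.18 in CEACAM1-L, 7.45 ± 0.17 in CEACAM1-S and 6.28 ± 0.39 in control cells (SD, n = 4). It rose by 1.30 in CEACAM1-L (limma adjusted p = 1.9e-06) and by 1.17 in CEACAM1-S (adjusted p = 1.6e-05), with no overlap with control. In the authors' deposited log2 values these differences were 0.66 and 0.57. Idh3a lies on chromosome 9. Idh2, the NADP-linked mitochondrial form, rose by 0.60 in CEACAM1-L (0.38 in the authors' deposited values), Suclg2 by 0.54 and the citrate synthase gene Cs by 0.48. Pdk1, a kinase that shuts pyruvate dehydrogenase, fell by 0.42 in CEACAM1-L and 0.49 in CEACAM1-S. Between CEACAM1-L and CEACAM1-S, 4 genes of the list were higher in CEACAM1-L, or 23.5% against 13.2% of all genes.

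Among 12 tested genes of mitochondrial DNA upkeep and transcription, 1 rose and 3 fell in CEACAM1-L, and 1 rose and 2 fell in CEACAM1-S. The shares that fell were 25% in CEACAM1-L and 16.7% in CEACAM1-S, against 18% and 11.4% of all genes. Mterf1a, of a transcription termination factor family, rose by 0.78 and 0.34; the second was 0.22 in the authors' deposited values and did not pass there (limma adjusted p = 0.0545). Tefm, a transcription elongation factor gene, fell by 0.52 and 0.42, and Tfam, the main DNA packaging factor, passed in neither line. Among 10 coenzyme Q synthesis genes, 2 fell in CEACAM1-L (20% fallen against 18% of all genes), and Coq10b fell by 0.52 there.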
